A study of Bos taurus with 8 samples.

Results

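Chemerin and its 3 receptors are described here in corpora lutea (CL) of cattle, the progesterone-secreting glands that form on the ovary after ovulation. The 4 genes, RARRES2 for chemerin and CMKLR1, CCRL2 and GPR1 for the receptors, were chosen by their symbols from 13861 genes in a table of normalized counts, and each had 1 row. RNA came from CL of 4 bred heifers on day 17 of pregnancy and of 4 heifers that were not bred, on day 17 of the estrous cycle. Each heifer gave 1 CL, and the labels name no other difference between the groups. The libraries were made from total RNA of whole CL, so each value is a mean over luteal, endothelial, stromal and immune cells, and fewer cells of a type cannot be told apart from less RNA per cell.

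Chemerin is secreted as an inactive precursor, prochemerin, and proteases of coagulation, fibrinolysis and inflammation activate it by removing residues from its C-terminal end. It attracts cells that carry CMKLR1, among them macrophages, dendritic cells and natural killer cells, and it is also an adipokine. CMKLR1 signals through inhibitory G proteins. GPR1 is another signaling receptor, whereas CCRL2 binds chemerin without signaling and presents it to CMKLR1 on neighboring cells. RARRES2 takes its name from its response to a retinoid, and in the ovary chemerin is known for lowering steroid secretion by granulosa cells in culture.

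Total reads per CL, recovered from the normalized counts, were 43654655 to 48294165 in pregnancy and 42770725 to 47076454 in the estrous cycle. No library stood apart in depth, and the 10 most abundant genes took 8.05 to 10.7% of reads in each CL. Luteal markers, such as the genes for steroidogenic enzymes, were abundant in all 8 CL, with summed normalized counts of 1678858 to 2404991 in pregnancy and 1546810 to 1851514 in the estrous cycle. Each gene was tested for a difference between pregnancy and the estrous cycle with limma on log2(normalized count + 1), and a gene was called at a Benjamini-Hochberg adjusted p under 0.05 over all genes. In this comparison 3 of 13861 genes (0.0216%) were called, 2 higher (0.0144%) and 1 lower (0.00721%) in pregnancy, and none of them was a receptor for chemerin. At an unadjusted p under 0.05 there were 1041 genes, or 7.51%, of which 508 were higher (3.66% of all) and 533 lower (3.85%) in pregnancy. On the recovered reads, DESeq2 called 94 of 13009 genes (0.723%), whereas edgeR and limma-voom called 1 gene each. In simulated data, DESeq2 called 67 of 13661 unchanged genes, against 11 by limma, 9 by edgeR and 12 by limma-voom. The DESeq2 calls may therefore hold more false ones than its threshold states.

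RARRES2 (ENSBTAG00000004215) was one of the more abundant mRNA of the CL, with a mean above that of 92.5% of genes. Its normalized counts were 5913, 6119, 8076 and 5885 in pregnant replicates 1, 2, 4 and 5, against 9088, 8837, 11268 and 9340 in cyclic replicates 1 to 4. The highest pregnant CL, replicate 4, was below the lowest cyclic CL, so the groups did not overlap. Over all genes, the 4 pregnant CL were below the 4 cyclic CL in 314, or 2.27%.

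Chemerin mRNA averaged 6498 ± 1057 normalized counts in pregnancy and 9633 ± 1109 in the estrous cycle (SD, n = 4 each), a ratio of 0.675. The log2 difference, pregnant minus cyclic, was -0.57 (SE 0.12), and 800 of the 13861 genes had a lower one. RARRES2 was chosen for its difference in these same CL, so its values are given as a description with no p. Reads of RARRES2 numbered 26567 in pregnancy and 38428 in the estrous cycle, and the spread between CL was 16.3% of the mean in pregnancy and 11.5% in the estrous cycle. Leaving out each CL in turn gave log2 differences of -0.68 to -0.50.

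**Figure D1:**
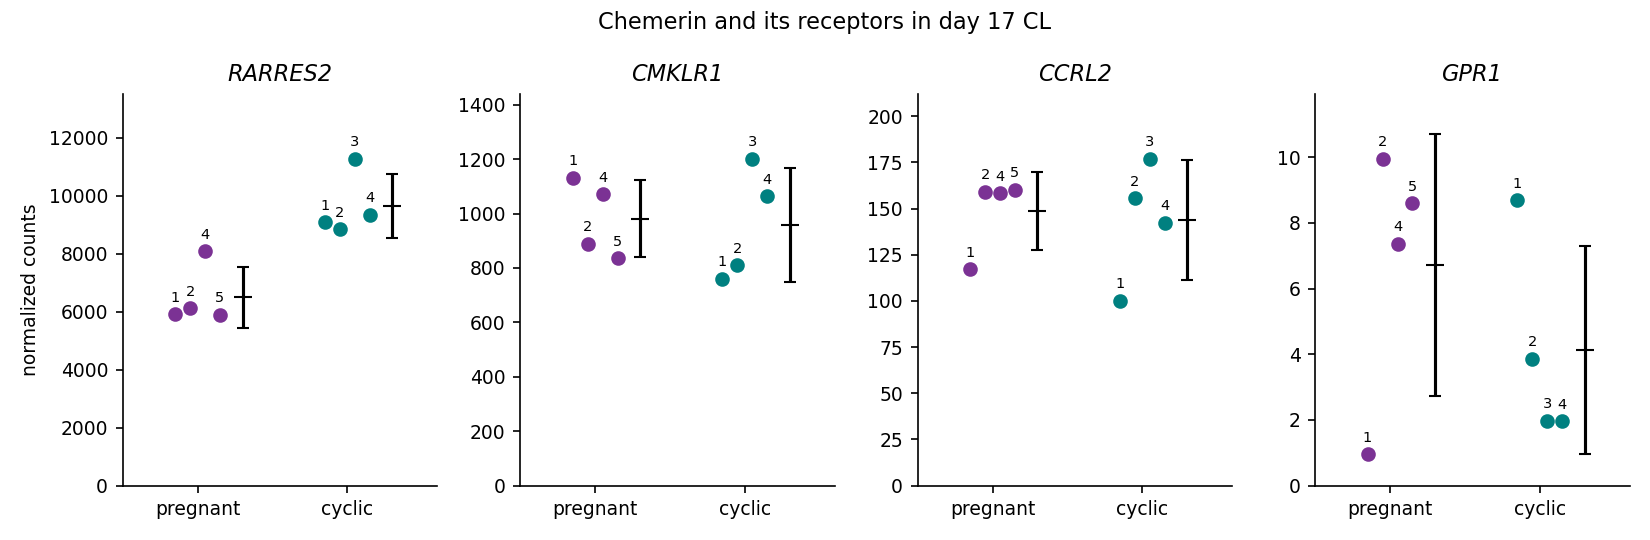
Normalized counts of RARRES2, CMKLR1, CCRL2 and GPR1 in each day 17 CL, in pregnant CL (purple, left) and cyclic CL (teal, right), each numbered by replicate; black bars are the mean and SD, and each axis starts at 0 with a scale of its own. RARRES2 ran from 5885 to 8076 in pregnant CL and from 8837 to 11268 in cyclic CL, while the groups overlapped for the 3 receptors.

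CMKLR1 (ENSBTAG00000022039), the main signaling receptor for chemerin, had 1132, 889, 1070 and 835 normalized counts in the pregnant CL, against 760, 810, 1201 and 1064 in the cyclic CL. All 4 pregnant CL were within the range of the cyclic CL. Its mean was 981 ± 142 in pregnancy and 959 ± 209 in the estrous cycle (SD, n = 4 each). The log2 difference was 0.05 (SE 0.17, limma adjusted p = 0.964), with a 95% interval of -0.33 to 0.43, or a fold of 0.793 to 1.35. Differences within these bounds in either direction are compatible with the values of the 4 CL in each group. The interval does not give the smallest difference that could be called.

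CCRL2 (ENSBTAG00000006155), the receptor that holds chemerin at the cell surface, had 117, 159, 158 and 160 normalized counts in the pregnant CL, against 100, 156, 177 and 142 in the cyclic CL. Pregnant replicate 1 and cyclic replicate 1 were the lowest of their groups. Its mean was 149 ± 21.1 in pregnancy and 144 ± 32.4 in the estrous cycle (SD, n = 4 each). The log2 difference was 0.07 (SE 0.23, limma adjusted p = 0.963), with a 95% interval of -0.45 to 0.58, or a fold of 0.732 to 1.5.

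GPR1 (ENSBTAG00000017043) was close to the limit of the table. Its reads numbered 1, 10, 8 and 8 in the pregnant CL, against 8, 4, 2 and 2 in the cyclic CL, and its mean was above that of 4.0% of genes. The table holds no value under 1 read, and 250 to 381 genes were at 1 read in each CL, so the 1 in pregnant replicate 1 may stand for 0, which also bears on the sum and the ratio of reads given for GPR1. In normalized counts these were 0.959, 9.95, 7.36 and 8.60 in pregnancy, against 8.70, 3.86, 1.98 and 1.96 in the estrous cycle. The lowest CL of all, replicate 1, was in the pregnant group and the next lowest were cyclic replicates 4 and 3, so the groups overlapped.

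GPR1 averaged 6.72 ± 3.98 normalized counts in pregnancy and 4.12 ± 3.18 in the estrous cycle (SD, n = 4 each). The log2 difference was 0.51 (SE 0.68, limma adjusted p = 0.872), with a 95% interval of -1.0 to 2.02, or a fold of 0.501 to 4.06. Summed over CL there were 27 reads in pregnancy and 16 in the estrous cycle. The ratio per total reads was 1.65, with an exact 95% interval of 0.857 to 3.28, which covers counting error only. GPR1 had an even number of reads in 7 of 8 CL. Its reads may thus not be independent, and the exact interval may be too narrow even for counting error. Without pregnant replicate 1 the pregnant mean was 8.64 ± 1.30 (SD, n = 3) and the log2 difference was 1.08. Neither interval excluded an equal level in the groups.

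The order by normalized count was the same in every CL, with RARRES2 above CMKLR1, CMKLR1 above CCRL2 and CCRL2 above GPR1, and no neighbors in this order overlapped. These are counts of reads and not levels per length, so the order does not compare molecules between genes. Within a CL, the ratio of the ligand to a receptor does not depend on the factor by which the CL was normalized. RARRES2 over CMKLR1 was 5.22, 6.88, 7.55 and 7.05 in the pregnant CL, against 11.96, 10.9, 9.38 and 8.78 in the cyclic CL. The ratio did not overlap between groups and averaged 6.68 ± 1.01 in pregnancy and 10.3 ± 1.45 in the estrous cycle (SD, n = 4 each). RARRES2 over CCRL2 was 50.5, 38.4, 51.0 and 36.8 in the pregnant CL, against 90.9, 56.8, 63.7 and 65.6 in the cyclic CL, again with no overlap. RARRES2 was chosen for its difference and did not overlap by itself, and these receptors differed little. The ratios are therefore a description and no separate evidence of its difference. CCRL2 over CMKLR1, which leaves chemerin out, was 0.103 to 0.192 in pregnancy and 0.132 to 0.192 in the estrous cycle.

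**Figure D2:**
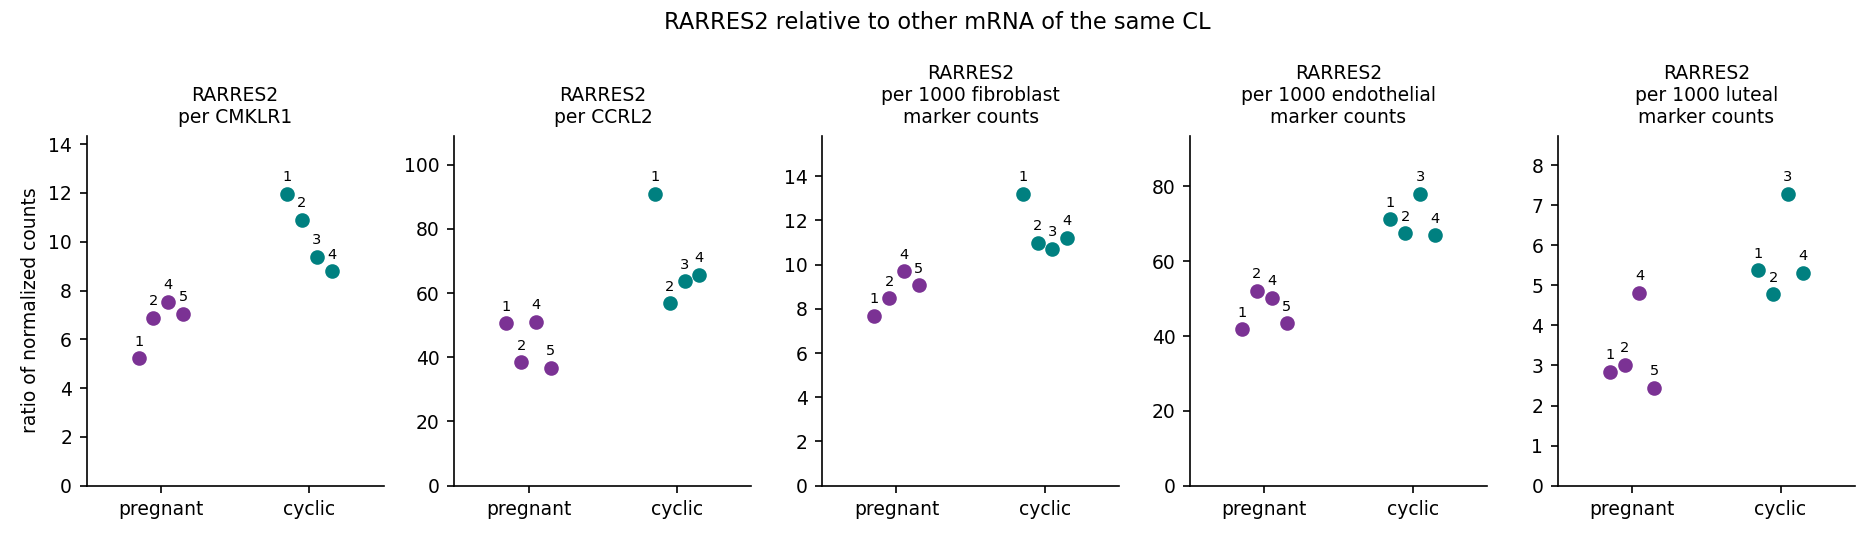
RARRES2 normalized counts in each CL divided by CMKLR1, by CCRL2 and by each 1000 summed normalized counts of fibroblast, endothelial and luteal markers, in pregnant CL (purple, left) and cyclic CL (teal, right), numbered by replicate; each axis starts at 0. The pregnant CL were below all cyclic CL in each panel except the luteal one, where replicate 4 (4.81) was above the lowest cyclic CL (4.77).

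Markers of the cell types of the CL were set beside chemerin. Of 8 fibroblast markers, 8 had log2 differences below 0 and none was called, with a median of -0.14 beside 0.000473 over all genes. Their summed normalized counts were 648630 to 831786 in pregnancy and 688252 to 1051242 in the estrous cycle. Decorin (DCN), a collagen-binding proteoglycan, was the fibroblast marker with no overlap, at 31056 ± 3517 in pregnancy and 41555 ± 6395 in the estrous cycle (SD, n = 4 each; log2 difference -0.41, SE 0.13, limma adjusted p = 0.550).

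Per 1000 fibroblast marker counts, RARRES2 was 7.69 to 9.71 in pregnancy and 10.7 to 13.2 in the estrous cycle, a log2 difference of -0.40. Per 1000 endothelial marker counts it was 41.9 to 52.1 in pregnancy and 67.0 to 78.0 in the estrous cycle (-0.60). All 4 pregnant CL were below all cyclic CL by either measure, as they were for RARRES2 by itself. Per 1000 luteal marker counts it was 2.45 to 4.81 in pregnancy and 4.77 to 7.28 in the estrous cycle (-0.82), with 3 of 4 pregnant CL below all cyclic CL. Of the 10 endothelial markers 4 were above 0 and 6 below, with a median of -0.07, and of the 9 luteal markers 6 were above 0 and 3 below, with a median of 0.17 and 0 called in either list. STAR, which brings cholesterol into mitochondria for steroid synthesis, was at 741036 ± 238100 in pregnancy and 583806 ± 64010 in the estrous cycle (SD, n = 4 each; log2 difference 0.30, limma adjusted p = 0.778), and without pregnant replicate 5 or 4 the log2 difference was 0.11 or 0.47. HSD3B1, which makes progesterone from pregnenolone, was at 565173 ± 92483 in pregnancy and 464836 ± 67938 in the estrous cycle (SD, n = 4 each; log2 difference 0.28, limma adjusted p = 0.731). The marker sums are unweighted, so the most abundant markers, such as COL1A1, COL1A2 and COL3A1 for fibroblasts, weigh most in them. The part of these cell types in the RARRES2 difference was not tested.

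The cells known to carry CMKLR1 were read from markers, and those of natural killer cells shared a list with T cell markers. Macrophage and dendritic cell markers, 14 of 18 with a row, had 4 log2 differences above 0 and 10 below, with a median of -0.12 and 0 called, and their summed counts were 23131 to 42007 in pregnancy and 23014 to 36110 in the estrous cycle. For T and natural killer cells, 9 of 9 markers were above 0, with a median of 0.55, 0 called and sums of 2311 to 2820 in pregnancy and 1272 to 2329 in the estrous cycle. Of the T cell genes, CD3E had a log2 difference of 0.55, CD4 of 0.33 and CD8A of 0.70. Of the natural killer and cytotoxic cell genes, NCR1 had 0.10, NKG7 0.07, PRF1 0.44 and KLRK1 0.69. GZMB, with 2 to 20 reads in each CL, had 0.55. CD2, an adhesion receptor of T and natural killer cells, did not overlap, at 541 ± 48.5 in pregnancy and 375 ± 76.0 in the estrous cycle (SD, n = 4 each; log2 difference 0.55, SE 0.18, limma adjusted p = 0.576). Over all genes the 4 pregnant CL were above the 4 cyclic CL in 282, or 2.03%.

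Markers of neutrophils and mast cells, 7 of 8 with a row, were above 0 in 6 and below in 1, with a median of 0.38 and 0 called. CXCR2, the chemokine receptor of neutrophils, was at 43.7 ± 10.4 in pregnancy and 19.1 ± 7.15 in the estrous cycle (SD, n = 4 each; log2 difference 1.19, SE 0.35, limma adjusted p = 0.542), with no overlap. It had 11 to 61 reads in each CL. Of the other neutrophil markers, S100A9 was the 1 below 0, at -0.31. Its cyclic replicate 1 was at 316 normalized counts, against 35.3 to 67.6 in the other cyclic CL. S100A8 was at 0.38, S100A12 at 0.25 and CSF3R, with 1 to 8 reads in each CL, at 0.05. Chemerin is abundant in fat, and of 9 adipocyte markers 6 had a row, 2 above 0 and 4 below with 0 called and a median of -0.14. The defining ADIPOQ and LEP were not among those matched. None of 4 red cell markers was matched.

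Of the enzymes that process chemerin, 9 of 18 had a row, with 3 above 0, 6 below, a median of -0.11 and 0 called. PLAT, tissue plasminogen activator, had 10024, 12488, 13225 and 10275 normalized counts in the pregnant CL, against 11020, 15771, 17407 and 22100 in the cyclic CL. Its groups overlapped at cyclic replicate 1, and the log2 difference was -0.49 (SE 0.19, limma adjusted p = 0.618). PLAU, urokinase, another activator of plasminogen, was at 786 ± 143 in pregnancy and 975 ± 158 in the estrous cycle (SD, n = 4 each; log2 difference -0.32, SE 0.17, limma adjusted p = 0.689), and without pregnant replicate 2 the log2 difference was -0.17. Cathepsin K (CTSK), which can cleave prochemerin directly, was at 10383 ± 358 in pregnancy and 11293 ± 1678 in the estrous cycle (SD, n = 4 each; log2 difference -0.11, SE 0.10, limma adjusted p = 0.817), and without cyclic replicate 3 the log2 difference was -0.011. Neither of the 2 proteases listed as inactivating chemerin, CMA1 and PRTN3, was matched.

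Signaling genes below the receptors, G protein subunits, arrestins, kinases and phospholipases, were all measured, 21 of 21. Of these 13 were above 0 and 8 below, with a median of 0.04, 0 called and 0 at an unadjusted p under 0.05. GNAI2, an inhibitory G protein subunit, averaged 23195 normalized counts in pregnancy and 23064 in the estrous cycle (log2 difference 0.01, limma adjusted p = 0.995). PIK3CD, the leukocyte phosphoinositide 3-kinase subunit, had the smallest p of the list and was at 454 ± 53.7 in pregnancy and 380 ± 65.9 in the estrous cycle (SD, n = 4 each; log2 difference 0.27, SE 0.17, limma adjusted p = 0.728), and without cyclic replicate 2 the log2 difference was 0.17.

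Retinoid genes were set beside RARRES2 because of its response to retinoids. Of 20 listed, 16 had a row, 5 above 0 and 11 below, with a median of -0.12 and 0 called. STRA6, the membrane receptor through which cells take up retinol, had 216, 206, 150 and 118 normalized counts in the pregnant CL, against 337, 4234, 1067 and 294 in the cyclic CL. The groups did not overlap, but the cyclic CL differed from each other by far more than the pregnant CL, and cyclic replicate 2 was the highest.

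The log2 difference of STRA6 was -2.28 (SE 0.72, limma adjusted p = 0.569), and DESeq2 on the recovered reads gave -3.10 (adjusted p = 0.0496). Without cyclic replicate 2 the limma log2 difference was -1.49 (adjusted p = 0.533). Over all alternatives its adjusted p ran from 0.0496 to 0.784. RDH10, which oxidizes retinol towards retinoic acid, had 1132, 1444, 1256 and 1669 normalized counts in the pregnant CL, against 995, 1296, 888 and 923 in the cyclic CL (log2 difference 0.42, SE 0.16, limma adjusted p = 0.614). Its groups overlapped at cyclic replicate 2. ALDH1A1, which makes retinoic acid from retinal, was at 67473 ± 20927 in pregnancy and 72275 ± 23293 in the estrous cycle (SD, n = 4 each; log2 difference -0.09, SE 0.25, limma adjusted p = 0.949).

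**Figure D3:**
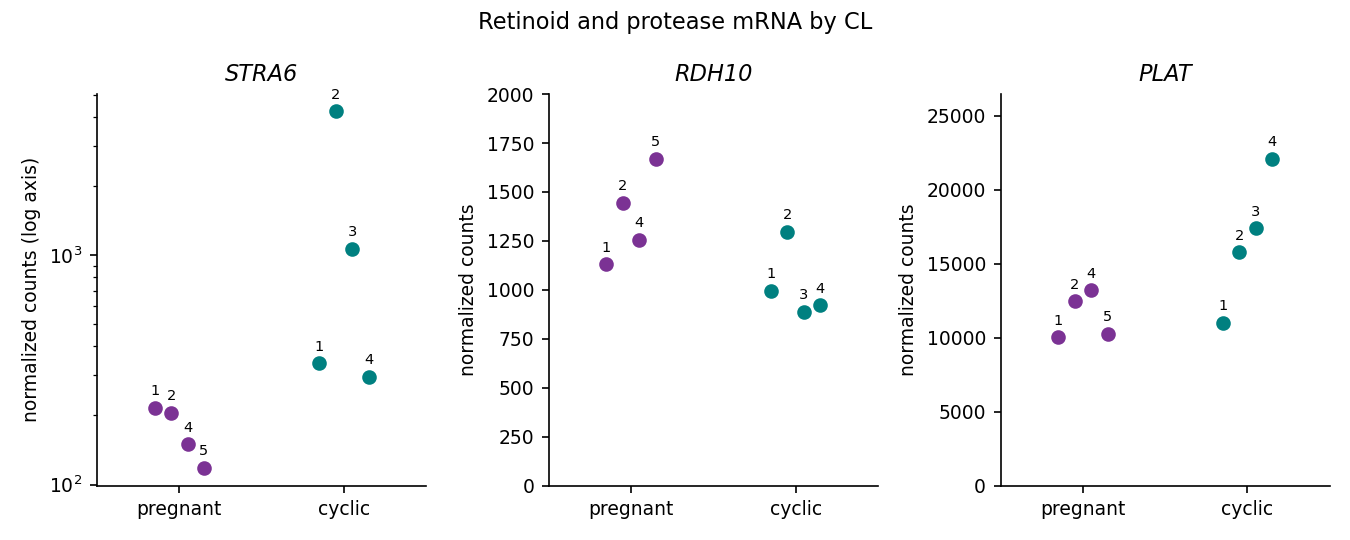
Normalized counts of STRA6 (log axis), RDH10 and PLAT (axes from 0) in pregnant CL (purple, left) and cyclic CL (teal, right), numbered by replicate. STRA6 ran from 118 to 216 in pregnant CL and from 294 to 4234 in cyclic CL, while RDH10 and PLAT overlapped between groups.

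Receptors related to those of chemerin, for complement fragments, leukotrienes and scavenged chemokines, had a row in 9 of 12, with 5 above 0, 4 below, a median of 0.12 and 0 called. LTB4R, the leukotriene B4 receptor, was at 20.6 ± 10.2 in pregnancy and 42.2 ± 22.3 in the estrous cycle (SD, n = 4 each; log2 difference -0.97, SE 0.47, limma adjusted p = 0.668). CXCR7, an atypical receptor that like CCRL2 binds its ligand without G protein signaling, was at 1142 ± 150 in pregnancy and 1068 ± 284 in the estrous cycle (SD, n = 4 each; limma adjusted p = 0.888). GPR77, a receptor for complement C5a, was at 648 ± 76.4 in pregnancy and 717 ± 147 in the estrous cycle (SD, n = 4 each; limma adjusted p = 0.859).

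**Figure D4:**
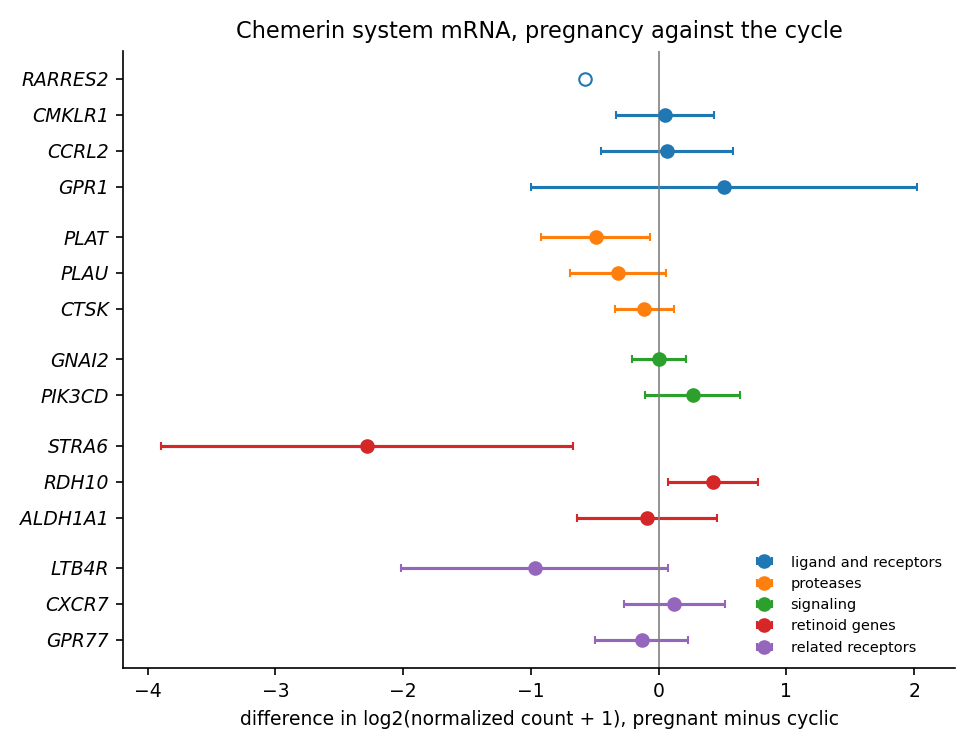
Difference in log2(normalized count + 1), pregnant minus cyclic, for chemerin, its receptors and the related genes named, with 95% intervals from limma; RARRES2 is an open circle with no interval because it was chosen for its difference. The intervals of CMKLR1 (-0.33 to 0.43), CCRL2 (-0.45 to 0.58) and GPR1 (-1.0 to 2.02) all include 0, and no gene shown with an interval was called by limma.

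Within groups, the CL varied in step for some genes more than others. After each group was centred on its mean log2 value, RARRES2 and CMKLR1 had a Pearson correlation of 0.59 over the 8 CL, RARRES2 and CCRL2 of 0.44, and CMKLR1 and CCRL2 of 0.30. For CMKLR1 and GPR1 it was -0.77, with GPR1 at 1 to 10 reads in each CL. Cyclic replicate 3 was the highest cyclic CL for RARRES2, CMKLR1 and CCRL2. Among 10315 genes with a mean of at least 100, those most like RARRES2 were VCAM1, ZFP64, ENSA, PCOLCE and LOC786246, with correlations of 0.94 to 0.96, and 28 genes were above 0.9. Among those most like CMKLR1 were TRIM35, BDKRB2, RPS6KA2 and Rassf3, and those most like CCRL2 were ATP2C2, NUP43, SLC12A9, EML3 and MYO1C. Such correlations are highest values of many over 8 CL that share their depth and composition, and they are given as a description.

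In RefSeq's ARS-UCD2.0 annotation, used for names only, the span of RARRES2 overlaps those of SSPO, ZNF862, ATP6V0E2 and LRRC61. The libraries were strand-specific, but whether the counting used strand is not given in the sources used here. LRRC61 was at 931 ± 43.0 normalized counts in pregnancy and 684 ± 263 in the estrous cycle (SD, n = 4 each; log2 difference 0.54, SE 0.28, limma adjusted p = 0.684). The log2 differences of the others were -0.16 for SSPO, 0.06 for ZNF862 and 0.13 for ATP6V0E2, and none was called.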

How the data were processed

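Strand-specific libraries of day 17 CL from 4 pregnant and 4 cyclic heifers were sequenced. The deposited values are signal, which the authors made by scaling gene reads with 1 factor for each CL. How reads were aligned and counted, the build and the annotation: not given in the sources used here. What 1 read is worth (0.920 to 1.09) divides 99.9% of the values evenly, within 0.01, which gave the reads. Read numbers from 2 to 9 were even in 71.4 to 77.2%, so reads may not be independent and counting intervals may be too narrow.

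Values were tested as log2(value + 1) with limma 3.58.1 (trend, R 4.3.3) on all 8 CL without covariates, for genes whose mean reached 1, which all 13861 did. The test and the count tests were checked on simulated data, where DESeq2 called the most unchanged genes. Alternatives were no filter, a minimum mean of 5, a pseudocount of 0.1 or 0.5, quantile normalization, total reads, edgeR 4.0.16, DESeq2 1.42.0 and limma-voom on recovered reads, each CL left out, a replicate block, and adjusted p under 0.10. The members and the 13 gene lists (118 of 148 entries matched, 7 by an older symbol) were chosen with earlier results of these data known. Named genes are the members, up to 4 of each list by smallest p and 2 by highest mean, and 5 most like each member. Which permitted names to print was settled after values were seen. So was the adding of CD4, KLRK1, GZMB, NCR1, NKG7, S100A8, CSF3R and the neighboring genes. Other software was Python 3.11.15 with scipy 1.17.1, pandas 2.3.3, numpy 2.4.6 and matplotlib 3.10.9. Results for some single genes were left out of the text.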

Additional observations from a re-analysis of the deposited data

Results flagged for a closer look

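In 11 of 120 groups of 4 CL, the highest or lowest CL was far from the other 3 by Dixon's criterion, which chance meets in about 1 in 20 groups. RARRES2 was at 8076 normalized counts in pregnant replicate 4, against 5885 to 6119 in the other pregnant CL. CCRL2 was at 117 in pregnant replicate 1, against 158 to 160 in the others. Among the enzymes that process chemerin, CTSK was at 13790 in cyclic replicate 3, against 10203 to 10720 in the other cyclic CL, and CPB1, a carboxypeptidase, was at 59.8 in pregnant replicate 4, against 1.99 to 5.76 in the other pregnant CL.

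Pregnant replicate 2 stood apart for ADRBK1, a receptor kinase, at 3406 against 3742 to 3755 in the other pregnant CL, and for ALDH1A1 at 98528 against 53044 to 60387. It also stood apart for the lipase LPL at 83091 against 31455 to 36865, and for HDC, which makes histamine, at 8.96 against 4.30 to 4.80. Cyclic replicate 1 stood apart for the complement receptor C5AR1 at 38.0, against 66.2 to 69.7 in the other cyclic CL, and for the macrophage scavenger receptor MSR1 at 243 against 359 to 373. The neutrophil protein S100A9 was at 316 in the same CL, against 35.3 to 67.6 in the others.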

How the results depend on the processing

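RARRES2 was lower in pregnancy under every alternative run, with log2 differences of -0.68 to -0.45. Comparisons relative to summed markers were added after seeing the data. By these, RARRES2 was at -0.40 (fibroblasts), -0.60 (endothelial cells), -0.69 (macrophages and dendritic cells) and -0.82 (luteal cells). The cause of this spread was not tested. The sums follow their most abundant markers and not whole cell types. C1QB and C1QC, the most abundant macrophage and dendritic cell markers, had log2 differences of 0.22 and 0.19, while 10 of the 14 markers were below 0. The number of genes called was 3 by limma, 94 by DESeq2, and 1 each by edgeR, limma-voom and edgeR with reads of 1 set to 0, and 1 to 4 when a CL was left out. Of the retinoid list, DESeq2, which called the most unchanged genes in simulated data, called 1, STRA6, with a log2 difference of -3.10. CMKLR1 ran from -0.055 to 0.16 and CCRL2 from -0.096 to 0.18 when a CL was left out. The sign of CMKLR1 turned without pregnant replicate 1 (-0.02), cyclic replicate 1 (-0.055) and cyclic replicate 2 (-0.02), and that of CCRL2 without cyclic replicate 1 (-0.096). GNAI2 ran from -0.058 to 0.046 and ALDH1A1 from -0.29 to 0.10, so their signs turned as well. Quantile normalization gives STAR and HSD3B1, among the most abundant mRNA in each CL, a difference of 0 because it sets the top ranks equal. GPR1 stayed above 0, at 0.12 to 1.08, and had no adjusted p in DESeq2.

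Same-numbered CL did not deviate together (correlations of 0.035, -0.061 and 0.029 for numbers 1, 2 and 4). This gave no sign that the numbers pair the CL, but it cannot exclude a pairing that affects few genes. With a replicate block over these 6 CL 0 genes were called by limma and 1160 had an unadjusted p under 0.05; without the block 1 was called. GNAI2 was at -0.018 in these CL with and without the block. With 4 CL in each group, any difference within the intervals given for the receptors is compatible with the values.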
